A study of Mus musculus with 6 samples.

Results

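The sphingosine-1-phosphate (S1P) receptor genes S1pr1, S1pr2, S1pr3, S1pr4 and S1pr5 were taken by symbol from the gene tables, 5 of 55487 genes, and all 5 passed the filter on low counts. Total hematopoietic cells positive for the leukocyte antigen CD45, freshly prepared, came from the spleen or from mesenteric lymph nodes (mLN, which receive lymph from the gut) of WT mice of the C57BL6/J strain. PolyA RNA was sequenced in 3 libraries per tissue. The labels name no other treatment or allele and no age, and they do not say whether the libraries of a tissue came from separate animals. P-values therefore measure only the spread between these libraries, which may be technical.

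S1P is a lipid that red cells and endothelium release into blood and lymph, while a breakdown enzyme keeps it low inside lymphoid tissue. Cells read this gradient through 5 G protein-coupled receptors. S1PR1 couples to Gi proteins and draws lymphocytes out of lymphoid organs and marginal-zone B cells towards the blood-exposed edge of the spleen. S1PR2 couples to G12 and G13 proteins, opposes migration and holds germinal-centre B cells in place. S1PR3 is used by endothelium, marginal-zone B cells and some myeloid cells, S1PR4 by lymphoid and myeloid cells broadly, and S1PR5 by NK cells and patrolling monocytes, which need it to leave tissue.

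S1pr3 and S1pr5 were about 8-fold to 11-fold lower in mLN than in spleen, while the other receptors differed by less than 1.5-fold. The bases before the start of both genes are shown because this pair moved the same way. The set of RefSeq promoter sequences used here (GRCm38.p6) covered 4 of the 5 receptors. It held none for S1pr1, which is therefore missing from the comparison below. Each line holds the 250 bases before the start, 5′ to 3′ on the gene's strand, at chr13:51408368-51408617 (plus strand) for S1pr3 and chr9:21248444-21248693 (minus strand) for S1pr5. Capitals mark CACCC or its reverse complement GGGTG, the letters of the box that KLF-type factors read.

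S1pr3: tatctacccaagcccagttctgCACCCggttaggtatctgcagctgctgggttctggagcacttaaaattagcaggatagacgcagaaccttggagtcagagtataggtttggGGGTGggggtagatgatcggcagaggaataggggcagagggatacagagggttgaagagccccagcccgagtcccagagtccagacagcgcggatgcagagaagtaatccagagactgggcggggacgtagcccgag

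S1pr5: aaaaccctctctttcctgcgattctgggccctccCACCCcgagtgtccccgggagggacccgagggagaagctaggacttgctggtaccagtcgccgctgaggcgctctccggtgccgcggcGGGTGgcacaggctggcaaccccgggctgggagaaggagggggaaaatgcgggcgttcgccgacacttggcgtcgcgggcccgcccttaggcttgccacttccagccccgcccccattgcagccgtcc

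Both windows held 2 such matches, and the windows of S1pr2 and S1pr4 held 1 each. Of 32536 windows of the same length before annotated starts, 52.1% held at least 1 and 21.2% held 2 or more. The letters GTGTGA of the T-box core, or their reverse complement, occurred in 12.1% of all windows, and CACCTG of the E-box read by ZEB factors, or its reverse complement, in 17.3%. Neither was in the 250 bases of S1pr3 or S1pr5, which says only that these letters are not in these windows. The windows of S1pr2 and S1pr4 held 1 match each to the E-box letters and none to the T-box core. Base composition differed between the windows, with 56.4% G or C for S1pr3, 69.2% for S1pr5, 59.2% for S1pr2 and 38.8% for S1pr4. The shares over all windows were not matched for base composition. Any part of these letters in the receptor levels was not tested.

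The libraries held 12584244 to 18119551 expected counts (estimated reads per gene). Ptprc, which encodes CD45, averaged 2191 ± 39.0 CPM (counts per 1000000 counts, scaled) over the spleen libraries and 2675 ± 35.0 CPM over those of mLN (SD, n = 3 each). All 10 pan-T marker genes rose in mLN and all 10 pan-B marker genes fell, with median log2 fold changes of 1.13 and -0.81. The median over all 14427 genes tested was 0.00. Of those genes, 45.5% were called by edgeR's quasi-likelihood test at an adjusted p under 0.05, 21.8% higher and 23.8% lower in mLN. A call by itself is therefore common in this comparison, and the size of a change says more.

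Compared per length, as TPM (transcripts per 1000000 transcripts), S1pr1 and S1pr4 were the leading receptors in both tissues. In spleen the mean levels ran from S1pr1 (140 TPM) through S1pr4 (100 TPM), S1pr5 (17.7 TPM) and S1pr3 (7.29 TPM) to S1pr2 (5.18 TPM). In mLN the order was S1pr1 (182 TPM), S1pr4 (109 TPM), S1pr2 (3.81 TPM), S1pr5 (1.55 TPM) and S1pr3 (0.873 TPM). No 2 neighbours in either order overlapped between libraries of that tissue. S1pr2, the lowest receptor in spleen, thus stood above S1pr5 and S1pr3 in mLN.

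**Figure D1:**
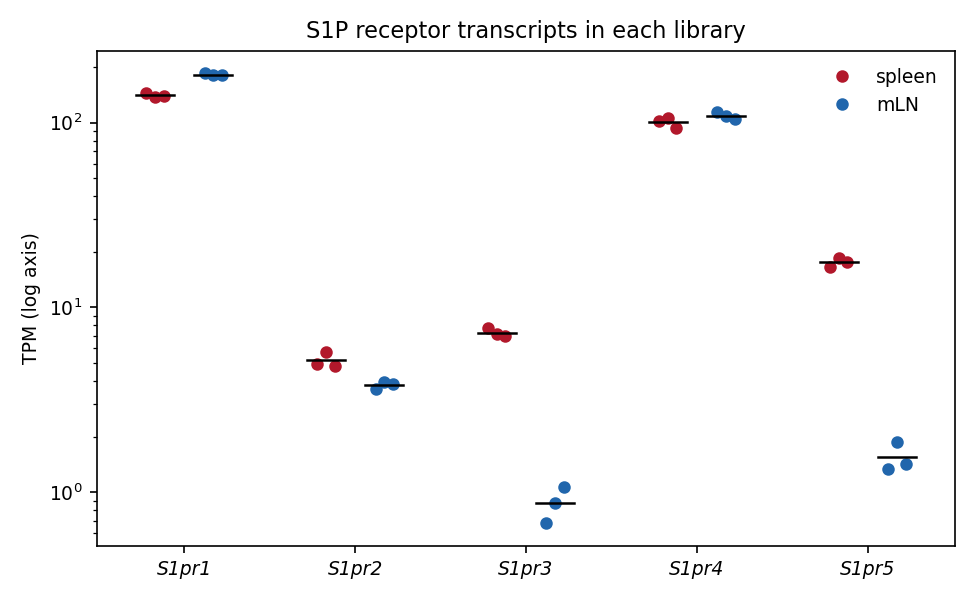
TPM of each receptor in the 3 spleen libraries (red) and the 3 mLN libraries (blue) on a log axis, with the mean as a black line. S1pr1 and S1pr4 lie between 93.0 and 185 TPM in every library, whereas S1pr3 and S1pr5 drop from 6.98 to 18.6 TPM in spleen to 0.680 to 1.87 TPM in mLN.

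S1pr1, the main egress receptor of T and B cells, lies on chromosome 3 (115710433 to 115715072, GRCm38, minus strand) and has 1 annotated transcript of 2 exons. It stood at 274, 263 and 265 CPM in the spleen libraries and at 364, 356 and 357 CPM in the mLN libraries. Every mLN library was above every spleen library, and 52.9% of all genes tested had tissues that did not overlap in CPM. The rise of S1pr1 was 1.34-fold (log2 fold change 0.42, SE 0.0308, edgeR adjusted p = 2.50e-15). Of the genes tested, 87.4% had a lower log2 fold change. With an assumed coefficient of variation of 0.2 between samples, in place of the 0.0550 estimated from these libraries, the call was lost (adjusted p = 0.249).

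The rise of S1pr1 was smaller than that of each of the 10 pan-T markers, which ran from 1.01 for Cd5, a co-receptor of T cells, to 1.57 for Trat1, an adaptor of the T-cell receptor. All 8 markers of naive and recirculating T cells rose, with a median of 1.37. Igfbp4 rose by 2.97 and Dapl1 by 2.17. Against the mean log2 CPM of the pan-T markers, S1pr1 stood at 1.67, 1.65 and 1.65 in spleen and at 0.87 in each mLN library, a difference of -0.79. Against the pan-B markers it stood at -0.96, -1.02 and -0.97 in spleen and at 0.31, 0.25 and 0.24 in mLN, a difference of 1.25. Neither pair of tissues overlapped. S1pr1 thus differed less than each of the 10 pan-T and 10 pan-B markers, and in bulk RNA fewer cells of a type and less RNA per cell cannot be told apart.

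Such relative levels were compared for 12 pairs of a receptor with a marker set. The test was a two-sided permutation of the libraries, exact over its 20 assignments. Its smallest possible p for 3 against 3 is 0.1, so no pair could pass 0.05. The exact p was 0.1 (0.109 adjusted over the 12 pairs) for 11 pairs and 0.3 for S1pr4 against Ptprc. The tissues did not overlap in those 11 pairs. Among single genes, 52.9% of those tested did not overlap in CPM. Because all pan-T markers rose and all pan-B markers fell, a gene that changes little separates the tissues against both sets. The share of other genes that would do so was not computed.

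**Figure D2:**
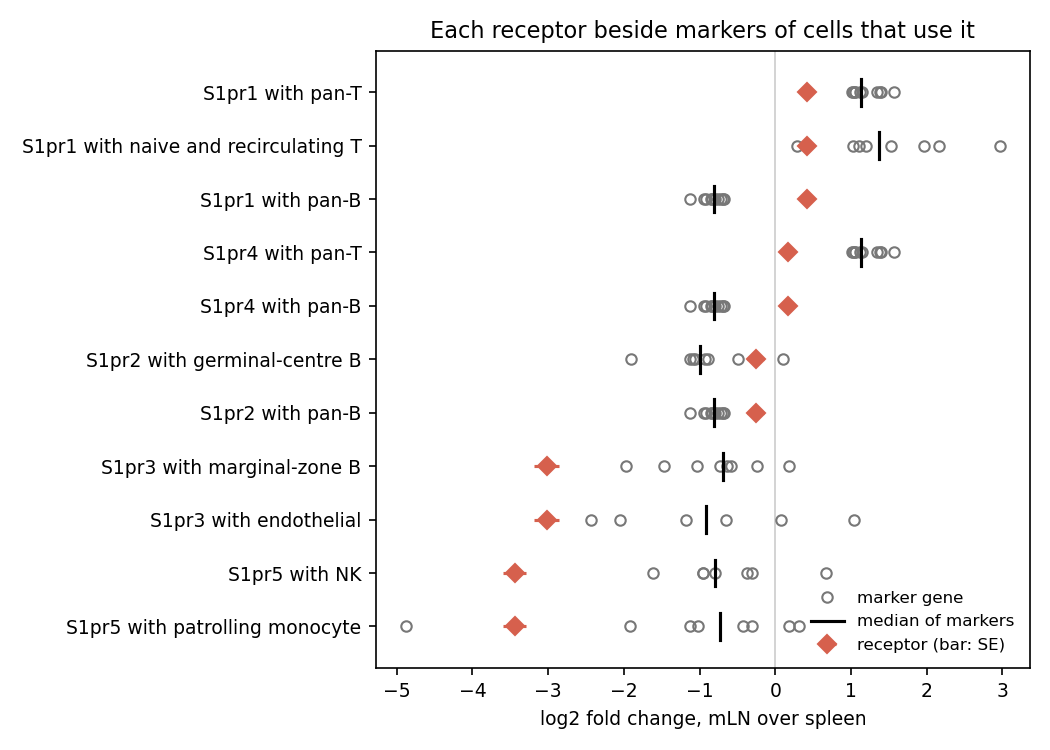
Log2 fold change, mLN over spleen, of each receptor (orange diamond with its SE) beside every tested marker gene of a cell type that uses it (open circles, with the median as a black line). S1pr1 and S1pr4 lie below all 10 pan-T and above all 10 pan-B markers, S1pr3 lies below all 8 marginal-zone B-cell markers, and S1pr5 lies below all 7 tested NK markers.

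S1pr4, a receptor of leukocytes at large, lies on chromosome 10 (81497747 to 81500132, minus strand) in a single exon. Its level was 150, 154 and 136 CPM in spleen and 172, 165 and 157 CPM in mLN. The lowest mLN library was just above the highest spleen library. The rise was 1.12-fold (log2 fold change 0.17, SE 0.0430, edgeR adjusted p = 0.00146), and the call was lost with the effective length of each library as an offset (adjusted p = 0.0578) and with an assumed coefficient of variation of 0.2 (adjusted p = 0.810).

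Relative to Ptprc, which all CD45+ cells express, S1pr4 did not separate the tissues. The log2 difference was -3.86, -3.81 and -4.04 in spleen and -3.98, -4.00 and -4.08 in mLN. The means differed by -0.12, and the libraries overlapped (exact permutation p = 0.3). Relative to the pan-T markers S1pr4 differed by -1.04 between mLN and spleen, and relative to the pan-B markers by 0.99.

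S1pr2, the confining receptor of germinal-centre B cells, lies on chromosome 9 (20962361 to 20976781, minus strand) and has 4 annotated transcripts. It stood at 20.3, 16.8 and 18.4 CPM in spleen and at 14.8, 16.0 and 15.4 CPM in mLN. Although the libraries did not overlap, the difference was not called (log2 fold change -0.26, SE 0.115, edgeR adjusted p = 0.0591). Over all genes tested, 52.9% had tissues that did not overlap in CPM. The call of S1pr2 turned on single choices: without spleen replicate 2 its adjusted p was 0.0385, and with an effective-length offset 0.0361.

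Spleen replicate 2 also stood apart in how the authors' estimate spread S1pr2 reads over its transcripts. The effective length there was 4333 bases, against 6044 and 5658 bases in the other spleen libraries and 5753 to 5903 bases in mLN. That library had the lowest expected count (275) and CPM (16.8) of S1pr2 in spleen and, divided by the shorter length, the highest TPM (5.74).

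Of 8 germinal-centre B-cell markers, 7 fell in mLN and 1, Fas, was not called. Their median log2 fold change was -0.99. Gcsam, a signalling adaptor of germinal-centre B cells, fell by 1.90. Relative to these markers S1pr2 stood at 1.21, 0.99 and 1.06 in spleen and at 1.56, 1.80 and 1.88 in mLN, higher by 0.66 on the log2 scale. Relative to the pan-B markers it was higher in mLN by 0.57.

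S1pr3 lies on chromosome 13 (51408639 to 51422797, plus strand) and has 1 annotated transcript of 2 exons. It stood at 22.2, 20.5 and 19.9 CPM in spleen and at 2.0, 2.59 and 3.16 CPM in mLN. The expected counts behind these values were 386, 336 and 333 in spleen and 30, 46 and 39 in mLN. The fall was 8.08-fold (log2 fold change -3.02, SE 0.164, edgeR adjusted p = 1.90e-19). Falls of at least 2-fold were called for 8.60% of the genes tested, and only 259 genes (1.80%) had a lower log2 fold change. The call held with an assumed coefficient of variation of 0.4, a setting under which 6.40% of genes were called.

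All 8 marginal-zone B-cell markers fell less than S1pr3 or rose. The largest fall was that of Fcrl5, a receptor of innate-like B cells (-1.97), followed by Cr2, the complement receptor that marks these cells (-1.47). Their median was -0.69, against -0.81 for the 10 pan-B markers, and Dtx1 rose by 0.18. Whether this set follows marginal-zone cells apart from other B cells was not tested. Relative to the markers' mean, S1pr3 stood at -1.79, -1.90 and -1.85 in spleen and at -4.30, -4.04 and -3.71 in mLN. The difference was -2.17, with no overlap.

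Endothelial cells, which also use S1PR3, do not carry CD45. Cdh5, the cadherin of endothelial junctions, stood at 1.67, 2.50 and 2.09 CPM in spleen and at 0.734, 1.57 and 0.324 CPM in mLN. Of 12 endothelial genes 6 passed the filter, of which 3 fell and 3 were not called, and Emcn and Flt4 had no counts in mLN. Their summed level was 213 to 217 CPM in spleen and 209 to 232 CPM in mLN. Most of it was Pecam1 (202 ± 2.26 and 213 ± 11.0 CPM, SD, n = 3 each), an adhesion gene that leukocytes express too. Vwf fell by 2.43 on the log2 scale, from 6.48 ± 1.02 to 1.23 ± 0.705 CPM (SD, n = 3 each). Egfl7 fell by 2.05, from 1.41 ± 0.734 to 0.341 ± 0.290 CPM (SD, n = 3 each). Kdr, which was not called, went the other way. Its log2 fold change was 1.04, from 0.687 ± 0.302 to 1.45 ± 0.582 CPM (SD, n = 3 each, edgeR adjusted p = 0.0848). Against the mean of the 12 genes, S1pr3 differed by -2.15 between mLN and spleen. That size depends on the prior count added before the logarithm. With 0.5 in place of 2 it was -1.75, and with 5 it was -2.30. The part of endothelial RNA in the S1pr3 level was not tested.

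S1pr5 lies on chromosome 9 (21242912 to 21248443, minus strand) and has 1 annotated transcript of 3 exons. It stood at 25.6, 28.6 and 27.2 CPM in spleen and at 2.14, 2.98 and 2.27 CPM in mLN. The counts behind these values were 446, 469 and 455 in spleen and 32, 53 and 28 in mLN. All mLN libraries were far below all spleen libraries, an 11.0-fold fall (log2 fold change -3.44, SE 0.151, edgeR adjusted p = 1.58e-22). Only 218 of the genes tested (1.51%) had a lower log2 fold change. This call, too, held with an assumed coefficient of variation of 0.4.

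Of 10 NK markers 7 passed the filter, and all 7 had a higher log2 fold change than S1pr5. The cytotoxic granule gene Gzma fell by 1.61, Ncr1, an activating receptor that marks NK cells, by 0.95 (from 12.8 ± 1.96 to 6.61 ± 1.55 CPM, SD, n = 3 each), and Eomes, a transcription factor gene also active in memory T cells, rose by 0.67. In all, 6 fell and 1 rose, with a median of -0.79. Relative levels took the mean of all 10 NK markers, including those that did not pass the filter. Against it, S1pr5 stood at 1.77, 2.12 and 1.95 in spleen and at -1.23, -0.40 and -0.76 in mLN, a difference of -2.74. With a prior count of 0.5 the difference was -2.57, and without markers under 1 CPM it was -2.80.

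Patrolling monocytes express S1pr5 as well, and of their 8 markers 7 had a higher log2 fold change than S1pr5. Cd300e, a receptor of these cells, fell by 4.88, from 12.1 ± 2.16 to 0.427 ± 0.273 CPM (SD, n = 3 each), the only marker of the 8 with a lower log2 fold change than S1pr5. Ace fell by 1.92. In all 5 fell and 2 rose, namely Spn (0.32) and Itgal (0.18), genes that lymphocytes express too, and 1 was not called. Their median was -0.72. Relative to their mean S1pr5 differed by -2.29 between mLN and spleen. That mean weighs each marker alike, so Spn and Itgal count as much as Cd300e and Ace. Whether S1pr5 fell more than patrolling monocytes did was not tested.

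**Figure D3:**
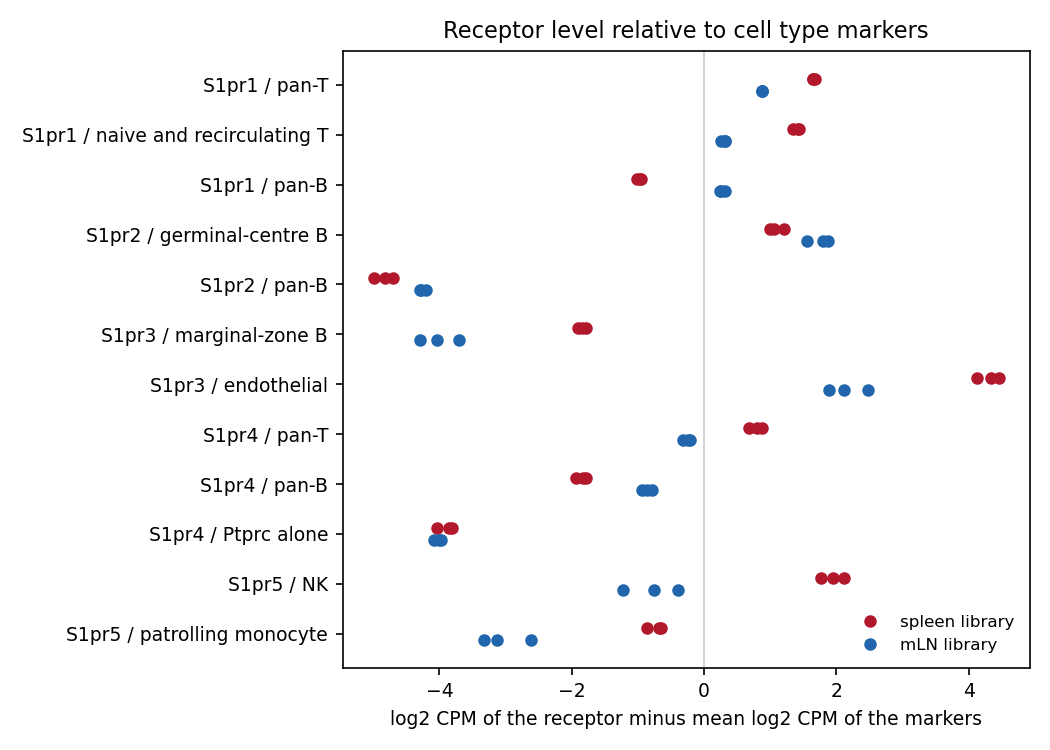
Log2 CPM of each receptor minus the mean log2 CPM of a marker set, in each spleen (red) and mLN (blue) library. S1pr3 and S1pr5 shift in mLN by -2.15 to -2.74 against each of their 4 sets, S1pr1 and S1pr4 shift in opposite directions against T-cell and B-cell markers, and S1pr4 against Ptprc overlaps.

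Markers of other cells differed between the tissues beside S1pr3 and S1pr5. The 8 neutrophil genes summed to 890 to 910 CPM in spleen and to 1.91 to 2.67 CPM in mLN, and the 8 erythroid genes to 1564 to 1635 CPM and 11.9 to 14.1 CPM. All 16 of these genes fell. The part of these cells in the receptor levels was not tested. The overlapping non-coding genes Gm32834 at S1pr3 and Gm48303 at S1pr5, both on the opposite strand, had at most 2 and 4 counts in a library.

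The receptors' shares of their summed TPM describe the mix that a library carried. They are bound by a common total, so where some shares fall others must rise, and the 5 tests below are not independent. The sum was 275, 275 and 262 TPM in spleen and 304, 296 and 291 TPM in mLN. S1pr1 made up 51.8 ± 1.53% of the spleen sum and 61.3 ± 0.786% of the mLN sum (SD, n = 3 each), and S1pr4 held 37.0 ± 1.43% and 36.6 ± 0.892%. S1pr5 went from 6.52 ± 0.414% to 0.521 ± 0.0986% and S1pr3 from 2.69 ± 0.106% to 0.295 ± 0.0722%. The share of S1pr2 was 1.91 ± 0.152% in spleen and 1.28 ± 0.0802% in mLN. For each receptor but S1pr4 the tissues did not overlap (exact two-sided permutation p = 0.1, or 0.12 adjusted over the 5 receptors), and for S1pr4 the exact p was 0.8. The sign of the S1pr4 difference (-0.412 percentage points) reversed without spleen replicate 2 (0.256) or mLN replicate 3 (0.0808).

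**Figure D4:**
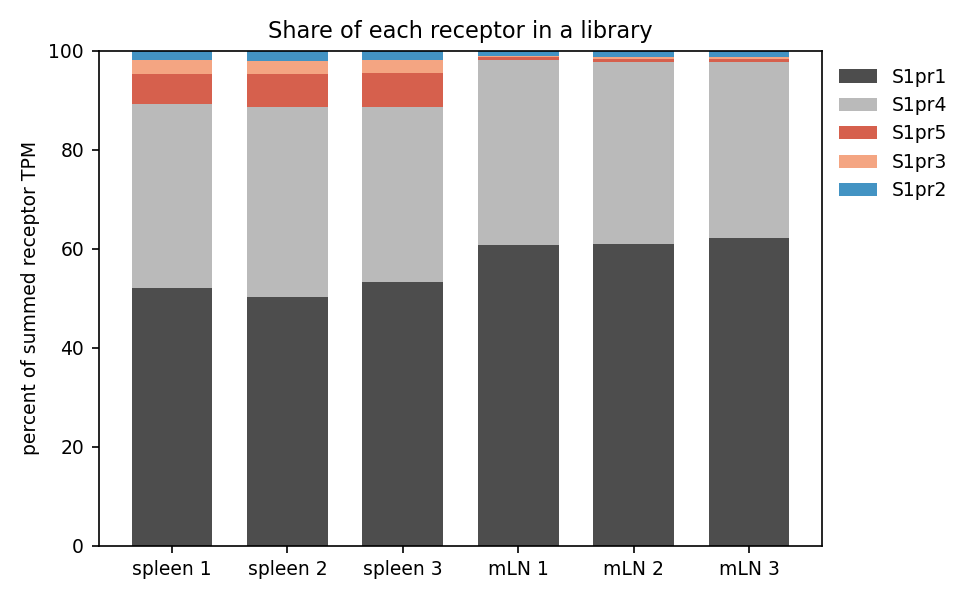
Stacked shares of the 5 receptors in their summed TPM, one bar per library. S1pr1 grows from 50.2 to 53.2% in spleen to 60.8 to 62.2% in mLN, S1pr4 lies between 35.5 and 38.4%, and the S1pr5 and S1pr3 segments shrink to under 1% each.

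Genes most like a receptor over the 6 libraries were sought among 10760 protein-coding genes by the root mean square difference of centred log2 CPM. The measure includes the difference between the tissues, so it favours genes with a like fold change, and shared control was not tested. S1pr1 was followed most closely by Birc6 (0.0136), Sun2 (0.0152) and Limd2 (0.0166). Their log2 fold changes were 0.41, 0.44 and 0.41, beside 0.42 for S1pr1. Nearest to S1pr4 were Thap2 (0.0261), Trim14 (0.0273) and Cers5 (0.0305), and nearest to S1pr2 were Wrap53 (0.0360), P2ry10b (0.0385) and Pikfyve (0.0411). For S1pr3 the nearest were Pheta2 (0.107), Slfn4 (0.130) and Padi4 (0.134). For S1pr5 the nearest were Slc40a1 (0.121), Steap3 (0.137) and Adgrg1 (0.146). S1pr3 and S1pr5, which had few counts in mLN and large falls, had no neighbour as close as the other receptors had. The reason was not tested.

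The genes around the receptors were followed in 6 lists with 44 members, of which 39 passed the filter. In mLN 15 rose, 17 fell and 7 were not called, with a median log2 fold change of -0.09. The share called was 82.1%, against 45.5% of all genes tested. These shares were not matched for expression level. With an assumed coefficient of variation of 0.2, 4 of the 39 rose and 8 fell, beside 934 and 1934 of all 14427 genes tested.

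Of the genes that make S1P, 6 of 7 passed the filter, and 3 fell, 1 rose and 2 were not called (median -0.36). Sphk1, a kinase that makes S1P from sphingosine, stood at 10.6, 13.4 and 12.1 CPM in spleen. In mLN it had 2 counts in replicate 2 and none in the other libraries. From 606 counts in spleen, the ratio was 270 (exact 95% interval 74.6 to 2239, counting error only). The other kinase, Sphk2, was not called, at 55.3 ± 2.83 and 50.4 ± 2.81 CPM (SD, n = 3 each, edgeR adjusted p = 0.119). Of the ceramidases, which supply sphingosine, Acer3 fell by 0.80 and Acer2 rose by 1.71, from 1.50 ± 0.164 to 4.94 ± 0.421 CPM. The erythroid and neutrophil genes fell beside Sphk1, and their part in it was not tested.

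Of 6 genes that break S1P down, 2 fell, 1 rose and 3 were not called (median -0.30). Sgpl1, the lyase that degrades S1P for good, was among the latter, at 104 ± 0.166 and 99.2 ± 5.27 CPM (SD, n = 3 each, edgeR adjusted p = 0.250). The surface lipid phosphatase genes Plpp1 and Plpp3 fell by 2.10 and fell by 1.54 on the log2 scale. The intracellular S1P phosphatase gene Sgpp1 rose by 0.19.

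Among export and carriage genes 5 of 6 passed the filter, and 4 fell and 1 was not called (median -0.83). Mfsd2b, the exporter of red cells and platelets, stood at 26.7, 21.7 and 20.7 CPM in spleen and at 1.53, 1.46 and 1.46 CPM in the mLN libraries (log2 fold change -3.95, SE 0.176, edgeR adjusted p = 2.92e-22). It fell beside the erythroid genes. Spns2, the exporter of endothelium, fell from 24.9 ± 0.842 to 14.0 ± 0.804 CPM (SD, n = 3 each, log2 fold change -0.83). The endothelial gene Cdh5 was at 2.09 ± 0.415 and 0.878 ± 0.638 CPM (SD, n = 3 each). Which of the CD45+ or other cells carried the Spns2 RNA was not tested. The drug efflux gene Abcg2 fell by 1.35.

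**Figure D5:**
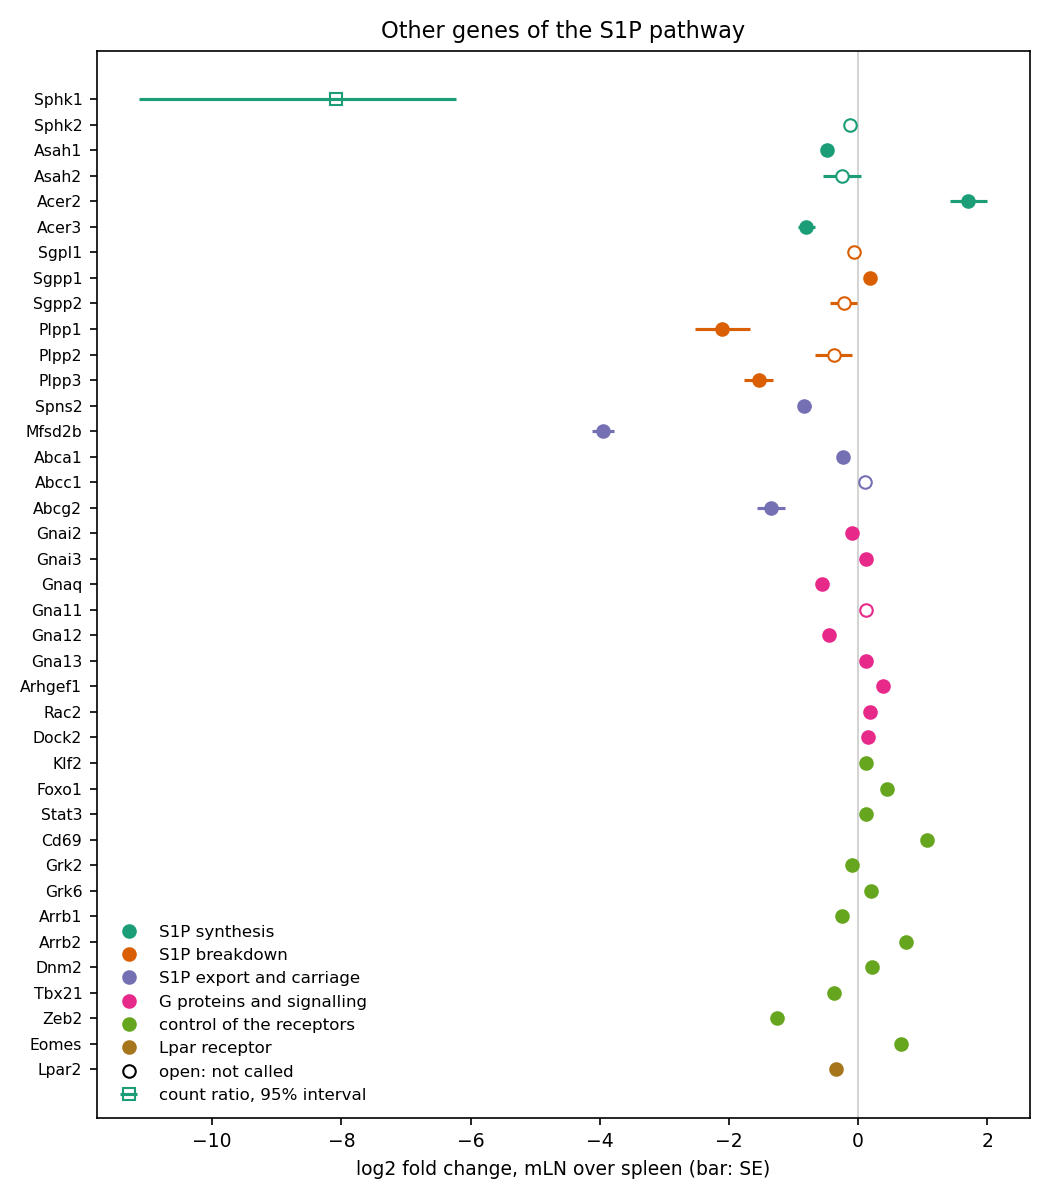
Log2 fold change, mLN over spleen, with its SE for the 39 tested genes of the S1P pathway, coloured by list. Filled circles were called and open circles were not, and the square for Sphk1 is its count ratio with a 95% interval. The largest falls are those of Sphk1 and Mfsd2b, and the called genes of the G protein and signalling list lie between -0.56 and 0.39.

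Signalling genes downstream of the receptors differed less. Of 10 such genes 9 passed the filter, and 5 rose, 3 fell and 1 was not called (median 0.13). Arhgef1, whose product G12 and G13 proteins activate, rose from 1334 ± 30.3 to 1752 ± 15.2 CPM (SD, n = 3 each, log2 fold change 0.39), and the GTPase gene Rac2 rose by 0.19. The G protein genes Gnaq and Gna12 fell by 0.56 and 0.45.

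Of 12 genes that control the receptors' transcription or surface level, 8 rose and 4 fell (median 0.17). Cd69, whose protein binds S1PR1 and pulls it from the surface, stood at 42.1, 45.4 and 46.5 CPM in the spleen libraries and at 99.4, 93.7 and 87.4 CPM in those of mLN (log2 fold change 1.07, SE 0.0615, edgeR adjusted p = 1.46e-18). Klf2, a transcription factor that drives S1pr1, had a log2 fold change of 0.13 (edgeR adjusted p = 0.00183), but its libraries overlapped, at 328 to 347 CPM in spleen and 343 to 380 CPM in mLN. The beta-arrestin gene Arrb2 rose by 0.74. Zeb2 and Tbx21, transcription factors that NK cells need to express S1pr5, fell by 1.25 and 0.37. Both fell less than S1pr5 itself did, and Eomes of the same list rose by 0.67. Which cells carried the RNA of these factors, and their part in the S1pr5 level, was not tested. Of 3 related lysophosphatidic acid receptor genes only Lpar2 passed the filter, and it fell by 0.34.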

How the data were processed

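Per the submitters' processing notes, the authors used STAR, RSEM and the build mm10. Tool versions, annotation and strand setting: not given in the sources used here. Per library, the authors deposited an expected count for each gene, a TPM value and an effective length in bases. Identifiers were matched to GENCODE M21 (GRCm38), and 55141 of 55487 had a symbol. Coordinates are 1-based.

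Expected counts were rounded, filtered with filterByExpr, scaled with TMM factors and tested with edgeR 4.0.16 (robust quasi-likelihood fit on tissue alone; R 4.3.3), with Benjamini-Hochberg adjustment over all 14427 genes tested. The threshold was an adjusted p under 0.05. Fold changes are mLN over spleen, CPM is TMM-scaled, and the SE comes from the F statistic. Relative levels use log2 CPM with a prior count of 2, over all markers of a list. Shares use the deposited TPM. DESeq2 1.42.0 and limma 3.58.1 were alternatives. Intervals cover counting error only, and the labels name no molecular identifiers.

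Named from each list were up to 2 called genes that rose most and 2 that fell most, and besides these Ptprc, Klf2, Cd69, Ncr1, Cdh5, Pecam1, Sphk1, Sphk2, Sgpl1, Spns2 and Mfsd2b whatever their values. Cd5, Fas, Kdr and the overlapping non-coding genes were named after their values were seen. Some members that the rule picks are not reported here. Receptors, lists and this rule were chosen with earlier results of these data known.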

Additional observations from a re-analysis of the deposited data

How the results depend on the processing

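S1pr3 and S1pr5 kept their direction and their calls under all 17 alternatives, and the 12 relative levels kept their direction under all of theirs. The log2 fold change of S1pr1 was 0.42 with an assumed coefficient of variation of 0.2 (adjusted p = 0.249) and 0.42 with 0.4 (adjusted p = 1.00), and that of S1pr4 was 0.17 (adjusted p = 0.810) and 0.17 (adjusted p = 1.00). Both calls were lost there. These 2 coefficients were chosen after seeing the data. S1pr4 was 0.17 with the effective-length offset (adjusted p = 0.0578), which left 1 receptor called higher, while the assumed coefficients left 0 (with either, 2 receptors were called lower). S1pr2 became a call with library totals only (-0.31, adjusted p = 0.0238) and with the effective-length offset (-0.39, adjusted p = 0.0361). Leaving out 1 library gave -0.33 to -0.19 for S1pr2 (adjusted p = 0.0385 to 0.271), 0.11 to 0.21 for S1pr4 (adjusted p up to 0.0388), and 2 to 3 receptors called lower. For the S1pr4 share it gave -1.17 to 0.256 percentage points. With assumed coefficients of 0.2 and 0.4, pathway calls were 4 and 1 higher and 8 and 4 lower, and calls over all genes 934 and 197 higher and 1934 and 726 lower. Same-numbered libraries did not deviate together (r = 0.03, 0.03 and -0.01), and with the replicate number as a block the log2 fold changes were 0.42, -0.26, -3.02, 0.17 and -3.45 for S1pr1 to S1pr5, with the same calls. Low counts limit S1pr3 and S1pr5 in mLN, with 115 and 113 counts in all.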

Other observations

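Markers of further cell types differed between the tissues as follows. Of 6 follicular helper T-cell markers 2 rose and 2 fell, with Icos at 1.08, Sh2d1a at 0.69, Pdcd1 at -0.89 and Cxcr5 at -0.60. Of 8 plasma-cell markers 7 fell, with Jchain at -2.0 and Derl3 at -1.67. Of 9 macrophage markers 2 rose (Marco and Siglec1, receptors of sinus macrophages, by 5.81 and 3.40) and 4 fell, with Adgre1 at -1.37 and Vcam1 at -1.22. Of 8 dendritic-cell markers 2 rose (Fscn1 by 3.28 and Ccr7 by 1.03) and 5 fell, with Xcr1 at -2.33 and Clec9a at -2.29. Of 6 platelet markers 2 passed the filter and both fell, with Itga2b at -2.37, and of 10 stromal markers 2 passed, with Pdgfrb at -1.97. These are log2 fold changes, mLN over spleen, from the edgeR test. Over all 14427 genes tested, 21.8% were called higher and 23.8% lower in mLN, so counts of called markers in such short lists say little by themselves.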
